A study of Homo sapiens with 12 samples.

Results

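The genes described here are 9 transcriptional targets of p53: MDM2, CDKN1A, BAX, BBC3, GDF15, TP53INP1, ZMAT3, SESN1 and FAS. They were chosen by symbol, and all 9 were listed in both count tables, among 28008 genes in the first and 25435 in the second. The first table holds LNCaP-ER/tet-MUC1shRNA cells, an enzalutamide-resistant derivative of the LNCaP prostate cancer line that carries a doxycycline-inducible shRNA against MUC1, treated for 7 days with vehicle (0.1% DMSO) or with 500 ng/ml doxycycline (DOX). All 6 of these libraries carry the construct, and no DOX-treated library without the shRNA was analysed here, so silencing and an effect of DOX itself cannot be told apart. The second table holds LNCaP cells and LNCaP/MUC1-C OE cells, which express exogenous MUC1-C, the transmembrane subunit of mucin 1, from a CMV promoter. The controls of that table are called wild-type in the sample labels and vector in the column names, and the titles of the MUC1-C libraries carry a prefix that elsewhere stands for an shRNA. Each of the 4 groups had 3 libraries from replicate cultures, so p-values measure the spread between those cultures. The transduced cells were selected with puromycin, and the sources used here do not say whether they were then cloned. Whether the LNCaP controls were transduced is not settled either. MUC1-C therefore cannot be told apart from transduction, selection or other differences between the cell populations. In what follows, with MUC1-C stands for LNCaP/MUC1-C OE cells against LNCaP cells.

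In cells, p53 is a transcription factor kept low by MDM2, an E3 ubiquitin ligase whose own gene p53 activates, which closes a negative feedback loop. DNA damage and other stresses break that loop, and stabilized p53 then switches on genes for cell-cycle arrest, apoptosis and metabolic adaptation. Control of p53 is mostly at the level of the protein, and no protein was measured here. Several of these targets also answer to other factors, GDF15 to the stress factor ATF4 being the best known case.

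The promoters were searched for the p53 response element, the sequence that p53 binds to act on a gene, and the stretches that hold a match are shown. The search finds letters alone, and p53 binding was not measured here. The element has 20 bases and consists of 2 adjacent copies of a 10-base motif with the core CNNG. Both cores had to be kept, no spacer was allowed, and up to 3 other mismatches were accepted; the motif is its own reverse complement, so 1 search covers both strands. RefSeq windows on GRCh38.p14, from 250 bases before to 50 after each annotated start, were found for 8 of the 9 genes (16 windows), and TP53INP1 had none. Elements lay in 5 of these 16 windows, from MDM2, FAS, SESN1 and GDF15, and in 1.12% of all 35116 windows. With at most 2 mismatches they lay in 3 of the 16, from MDM2 and FAS, and in 0.285% of all windows; windows of 1 gene can overlap, and the MDM2 element was counted in 2. Capitals mark the element. The MDM2 stretch (chr12:68808867-68809001, plus strand) and the SESN1 stretch (chr6:109008989-109009138, minus strand) lie before start sites inside these genes. They overlap no annotated untranslated region, and whether they overlap other exons was not tested. For FAS (chr10:88991309-88991328, plus strand) and GDF15 (chr19:18386186-18386205, plus strand) the element alone is shown: the first lies in exons of FAS and, on the other strand, of ACTA2, and the second in the first exon of GDF15, across the start of its coding sequence in GENCODE.
MDM2: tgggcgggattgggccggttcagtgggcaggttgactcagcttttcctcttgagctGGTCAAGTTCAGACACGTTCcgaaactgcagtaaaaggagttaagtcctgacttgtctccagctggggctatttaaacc
SESN1: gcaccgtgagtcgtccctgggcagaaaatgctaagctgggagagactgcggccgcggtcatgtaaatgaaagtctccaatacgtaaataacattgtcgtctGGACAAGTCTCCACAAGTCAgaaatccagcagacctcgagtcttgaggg
FAS: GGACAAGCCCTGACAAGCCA
GDF15: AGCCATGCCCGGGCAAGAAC
The MDM2 and FAS elements have 2 mismatches each and begin 94 and 122 bases before the start, while those of SESN1 and GDF15 have 3 and begin 49 bases before it and at base 29 of the transcript. In CDKN1A, BAX, BBC3 and ZMAT3 these letters were not found within the window, which says nothing about elements farther away. The genes with an element did not form a group in the measurements that follow: with DOX, MDM2 and FAS were higher while SESN1 and GDF15 were not called, and CDKN1A, without one in its window, moved most.

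Library totals were 28045894 to 45807989 counts in the silencing experiment and 13806856 to 19208944 in the overexpression experiment, and 14683 and 13836 genes passed the filter on low counts. MUC1, the targeted gene, had 9168 to 12622 counts in LNCaP/MUC1-C OE cells against 25 to 31 in LNCaP cells (log2 fold change 8.91, edgeR adjusted p = 2.77e-16). In the silencing experiment MUC1 was near the limit of detection, with 26, 10 and 13 counts in the vehicle libraries and 3, 42 and 8 in those labelled DOX (log2 fold change 0.12, edgeR adjusted p = 0.935, and -1.83, adjusted p = 0.0617, without DOX replicate 2). The library labelled DOX replicate 2 thus goes against its label, and it also stands apart in that 11.2% of listed genes are at 0, against 27.95% to 38.1% in the other 5. For MUC1, the 9 target genes and the wider list of p53 targets as a whole, results that rest on it are given with and without it. Other genes are given with every library kept. Differences were tested with edgeR's quasi-likelihood test fitted across all genes, and a gene is called where the Benjamini-Hochberg adjusted p is under 0.05. Levels are CPM, the usual counts-per-M scale, with library totals adjusted by TMM, and in such bulk libraries fewer cells with a transcript and less transcript per cell cannot be told apart.

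Per length, GDF15 was the most abundant of the 9 transcripts in vehicle-treated LNCaP-ER cells, at 235 ± 80.1 TPM (SD, n = 3). CDKN1A (52.5 ± 7.81 TPM) and TP53INP1 (48.2 ± 12.7 TPM) followed, and their libraries overlapped, as did those of TP53INP1 and MDM2 (33.1 ± 4.82 TPM). BAX (20.8 ± 4.83 TPM) overlapped with SESN1 (14.4 ± 3.34 TPM). ZMAT3 (6.196 ± 0.101 TPM), FAS (3.74 ± 0.390 TPM) and BBC3 (1.89 ± 0.374 TPM) were lowest and did not overlap with each other. TPM values were deposited for the silencing experiment only, and the order is given as a description. In the DOX libraries CDKN1A stood at 239 ± 29.3 TPM, above GDF15 in 2 of 3 libraries.

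**Figure D1:**
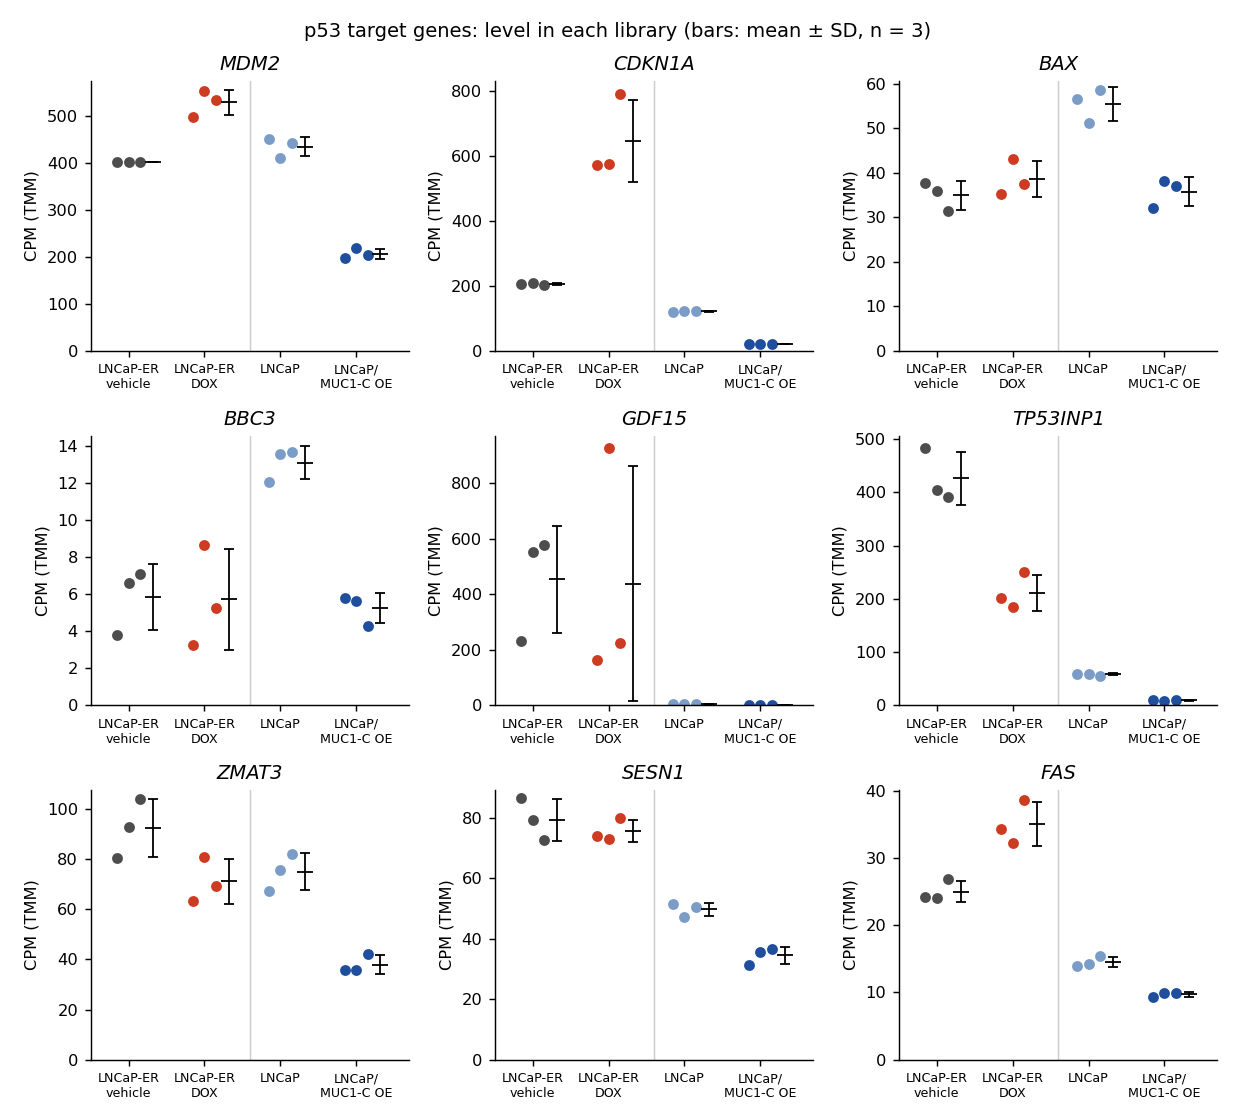
Level of each of the 9 p53 target genes in every library, as TMM-scaled CPM on a linear axis from 0, with points for single libraries and a bar for the mean ± SD (n = 3) of each group. The grey line separates the experiments, which were normalized separately. CDKN1A stands between 571 and 791 CPM in the DOX libraries against 203 to 208 with vehicle, and for all 9 genes the LNCaP/MUC1-C OE points lie below the LNCaP points.

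With DOX, 3 of the 9 target genes were higher (CDKN1A, FAS and MDM2), 1 was lower (TP53INP1) and 5 were not called. Across all genes 27.3% were called, 12.8% higher and 14.5% lower, and without overlap 21.2% were higher and 23.0% lower; the same 4 target genes had groups that did not overlap. Without DOX replicate 2, 3 were higher and 3 lower, without vehicle replicate 1, 3 and 2, without vehicle replicate 3, 2 and 1, and without vehicle replicate 2 or DOX replicate 3, 1 and 1. The median log2 fold change of the 9 genes was -0.03, against -0.02 over all genes tested. Of all calls 46.8% were higher, a share that became 59.6% when libraries were scaled by their totals alone and 95.04% on deposited TPM values, where the median gene shifted by 0.45. Markers of luminal prostate cells moved in the same comparison: the summed level of 9 markers was 4071 to 4277 CPM with vehicle and 5117 to 5558 CPM with DOX, 5 of the 9 were higher, none was lower and none was at 0. Basal, endothelial and fibroblast markers summed to at most 16.8 CPM in any of these libraries, and leukocyte markers to 5.15 to 7.48 CPM with vehicle and 22.5 to 23.2 CPM with DOX, where 1 of the 4 was tested and called. The part of these shifts in the values that follow was not tested.

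CDKN1A encodes p21, the inhibitor of cyclin-dependent kinases through which p53 arrests the cycle, and lies at chr6:36676460-36687339. Its level was 205, 208 and 203 CPM in the vehicle libraries and 571, 575 and 791 CPM in the DOX libraries. The groups were far apart, and the vehicle cultures were nearly alike. CDKN1A rose 3.14-fold (log2 fold change 1.65 ± 0.14 SE, edgeR adjusted p = 3.3e-04). It was called in all 16 alternatives, with values from 1.47 to 2.19 on the log2 scale, the lowest without DOX replicate 3. Without DOX replicate 2 the value was 1.76.

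MDM2, the ligase of the feedback loop, lies at chr12:68808176-68850686. It measured 401, 402 and 401 CPM with vehicle and 498, 552 and 534 CPM with DOX. No library of one group reached the other. The difference was a 1.32-fold rise (log2 fold change 0.40 ± 0.09 SE, edgeR adjusted p = 0.0121). Its size held between 0.38 and 0.43 whichever library was left out, but the call was lost without vehicle replicate 2 (adjusted p = 0.0622), vehicle replicate 3 (0.0690) or DOX replicate 3 (0.0559), fits in which 5 libraries remain.

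Of the 3 genes of the death programme FAS alone was called with DOX. FAS, the death receptor for FAS ligand, rose from 24.1, 24.0 and 26.8 CPM to 34.3, 32.2 and 38.6 CPM (log2 fold change 0.49 ± 0.11 SE, edgeR adjusted p = 0.0137), with no overlap. Without vehicle replicate 2 or DOX replicate 3 its call was lost (adjusted p = 0.0710 and 0.0657), and without DOX replicate 2 it held at 0.58. Exons of FAS (chr10:88990582-89015785) overlap those of ACTA2 on the other strand, and whether the authors' counting used strand is not stated. ACTA2 moved the same way, from 245 to 258 counts with vehicle to 374 to 723 with DOX (log2 fold change 0.77, edgeR adjusted p = 0.0103), and its part in the FAS value was not tested.

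BAX, the effector that opens the outer mitochondrial membrane, stood at 37.7, 35.8 and 31.4 CPM with vehicle and at 35.2, 43.1 and 37.6 CPM with DOX. Those ranges overlap, and the difference was 0.14 on the log2 scale (95% interval -0.12 to 0.41, edgeR adjusted p = 0.399). On TPM values filtered at 1 TPM, BAX was called higher with a pseudocount of 1 (0.67, limma adjusted p = 0.00865) or 0.1 (0.70, limma adjusted p = 0.00883). The median gene shifted by 0.45 and 0.52 in these fits. Without that filter BAX was not called (limma adjusted p = 0.216). BBC3, which encodes the BH3-only activator PUMA, had 3.80, 6.63 and 7.11 CPM against 3.27, 8.66 and 5.24 CPM. Its 95% interval, -0.86 to 0.80 on the log2 scale, is wide, so a change of moderate size in either direction was not detectable.

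TP53INP1, a stress-induced nuclear protein that promotes p53 activity and autophagy, was the member that fell. It measured 483, 404 and 391 CPM with vehicle and 201, 184 and 250 CPM with DOX. Every DOX library was below every vehicle library, and the log2 fold change was -1.01 ± 0.14 SE (edgeR adjusted p = 0.00164). Leaving out any 1 library kept the call, with values between -1.15 and -0.88. On TPM values the difference was -0.45 and not called (limma adjusted p = 0.0840), which is 0.90 below the shift of the median gene on that scale.

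ZMAT3, an RNA-binding zinc finger protein, was not called: it had 80.3, 92.7 and 104 CPM with vehicle and 63.3, 80.6 and 69.1 CPM with DOX (log2 fold change -0.38 ± 0.13 SE, edgeR adjusted p = 0.0552). The groups overlapped, DOX replicate 2 standing just above vehicle replicate 1. DESeq2 called it (-0.36, adjusted p = 0.0465), and so did the fits without DOX replicate 2 (-0.44, adjusted p = 0.0215), without vehicle replicate 1 (-0.47, adjusted p = 0.0317) and without a filter on low counts (-0.39, adjusted p = 0.0447), while on TPM values the estimate was 0.16. SESN1, a sestrin that restrains growth signalling under stress, measured 86.4, 79.2 and 72.6 CPM against 74.1, 73.1 and 79.9 CPM, a difference of -0.07 with a 95% interval from -0.29 to 0.15 on the log2 scale (edgeR adjusted p = 0.635).

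**Figure D2:**
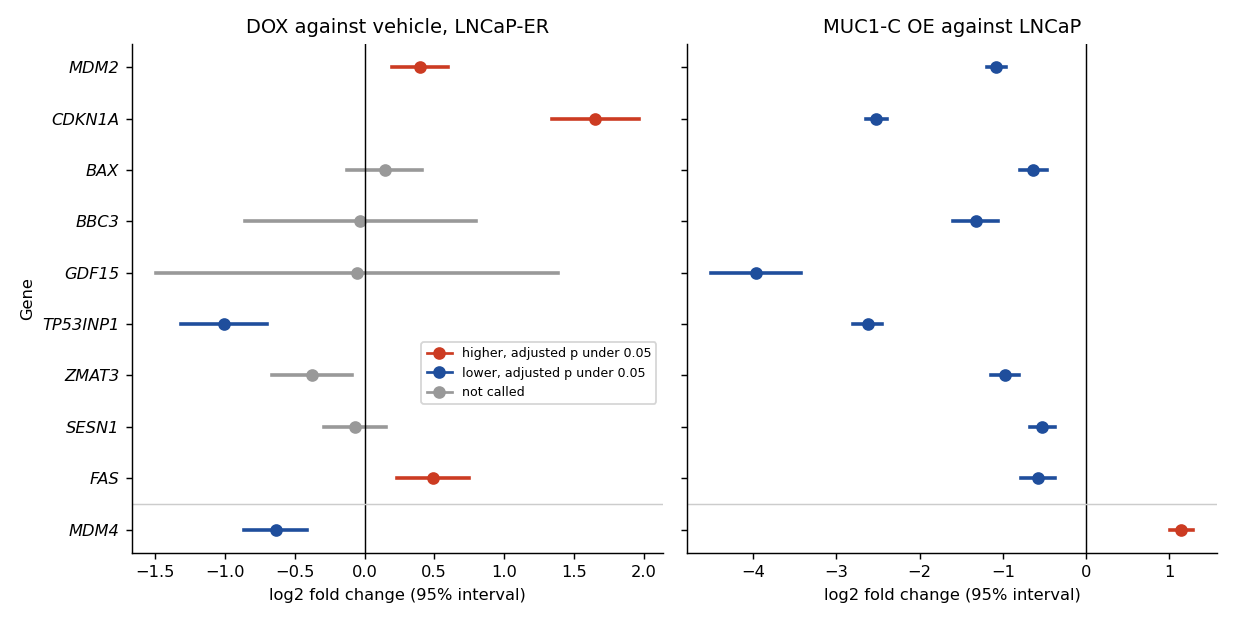
Log2 fold change (points) with its 95% interval (lines) for the 9 p53 target genes, and below the grey line for MDM4, in both experiments; the horizontal scales of the panels differ. Red marks genes called higher, blue genes called lower and grey genes not called at an adjusted p under 0.05. GDF15 has the widest interval with DOX, from -1.49 to 1.39, and all 9 target genes lie left of 0 in the MUC1-C OE comparison.

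GDF15, a secreted cytokine of the TGF-beta family, varied more between cultures of 1 group than between groups. It had 230, 553 and 578 CPM with vehicle and 165, 926 and 223 CPM with DOX. Vehicle replicate 1 was low in its group and DOX replicate 2 was the highest library of all 6. The log2 fold change was -0.05 ± 0.63 SE (edgeR adjusted p = 0.960), and without DOX replicate 2 it was -1.20, a call (adjusted p = 0.0324). One library therefore decides whether GDF15 counts as lower with DOX.

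Of 8 genes on a list of ATF4 and its responsive genes, all were lowest in replicate 1 of the vehicle group, and all but PPP1R15A were highest in replicate 2 within the DOX group. PPP1R15A, a phosphatase regulatory subunit of the same stress response that was named after its values were seen, had 3.96, 9.05 and 6.82 CPM with vehicle and 7.46, 8.45 and 9.55 CPM with DOX. ATF4 itself had 432, 654 and 653 CPM with vehicle and 190, 399 and 207 CPM with DOX. DDIT3, the pro-apoptotic factor CHOP, followed with 13.1, 51.1 and 53.9 CPM and 6.22, 24.6 and 7.68 CPM, and TRIB3, a pseudokinase induced by ATF4, with 109, 318 and 328 CPM and 52.2, 155 and 61.7 CPM. ATF4 was called lower (log2 fold change -1.13, edgeR adjusted p = 0.0186), as was the asparagine synthetase ASNS (-1.08, adjusted p = 0.0121), and the other 6 of the 8 genes on the list were not. Across 16 alternatives ATF4 and ASNS lost their calls in 6 and 5. TRIB3, DDIT3, CHAC1 and SESN2 gained a call in 5, 4, 3 and 1. The summed level of the 8 was 680 to 1307 CPM with vehicle and 371 to 910 CPM with DOX. GDF15 differed from them in that DOX replicate 2 was above every vehicle library, whereas ATF4 there was below every vehicle library. The part of ATF4 in the GDF15 values was not tested.

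**Figure D3:**
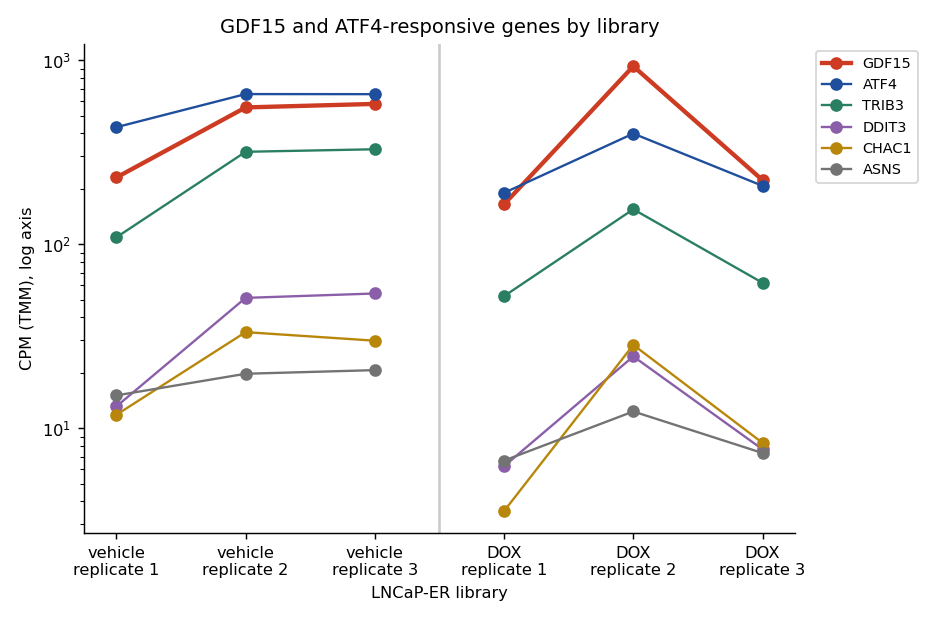
TMM-scaled CPM (log axis) of GDF15, ATF4, TRIB3, DDIT3, CHAC1 and ASNS in the 6 LNCaP-ER libraries, 3 with vehicle and 3 with DOX. Lines join the values of 1 gene within a group and imply no order of the replicates. Vehicle replicate 1 is the lowest vehicle library and DOX replicate 2 the highest DOX library for all 6 genes, and GDF15 reaches 926 CPM in the latter.

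MDM4, the MDM2 paralog that binds p53 and masks its activation domain, fell from 143, 143 and 160 CPM to 103, 87.3 and 95.8 CPM (log2 fold change -0.64, adjusted p = 0.00274), with -0.07 on TPM values. Of the p53 relatives, TP73 was at 7.79 to 11.9 CPM and not called, and TP63 was too low to test.

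Among 20 regulators of p53, 3 were higher with DOX and 4 lower, a share of 35% called against 27.3% over all genes (12.8% higher and 14.5% lower). The checkpoint kinase genes CHEK1 (log2 fold change -0.81, adjusted p = 0.0293) and CHEK2 (-0.61, adjusted p = 0.0276) were lower, with MDM4 and the ASPP family member TP53BP2 (-0.38, adjusted p = 0.0288). The damage sensor kinase ATR (0.34, adjusted p = 0.0325) was higher, as were the ASPP family genes PPP1R13B (0.60, adjusted p = 0.00802) and PPP1R13L (0.94, adjusted p = 0.0308). HIPK2, a kinase that phosphorylates p53, had 469 to 627 CPM with vehicle and 691 to 820 CPM with DOX, without a call (0.40, adjusted p = 0.0523). ATM, USP7, PPM1D and CDKN2A were not called, at -0.35, -0.21, 0.14 and -0.32 on the log2 scale. Of 16 alternatives, 8 called HIPK2, 2 called ATM, 2 called PPM1D and 1 called CDKN2A, while CHEK2 lost its call in 7. CHEK1, ATR, PPP1R13B, PPP1R13L and TP53BP2 were named because the counts of calls are small, after their values were seen.

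A wider list of 50 p53 targets, without the 9, divided in both directions. Of its 46 genes tested with DOX, 11 were higher, 8 were lower and 27 were not called; the median log2 fold change was 0.24. Without DOX replicate 2 the calls were 16 higher and 7 lower. The 11 higher calls became 6 without vehicle replicate 2, vehicle replicate 3 or DOX replicate 3 and 7 without vehicle replicate 1 or DOX replicate 1, and the 8 lower calls became 5 without vehicle replicate 2 and 3 without DOX replicate 3. The share called, 41.3%, compares with 27.3% over all genes. Among death-related targets 5 of 12 were higher and none was lower, where 12.8% of all genes were higher and 14.5% lower. The quinone oxidoreductase TP53I3 had 1.99, 1.77 and 2.95 CPM with vehicle and 9.49, 6.60 and 9.60 CPM with DOX (log2 fold change 1.94, edgeR adjusted p = 0.00165). The mitochondrial quality-control gene SPATA18 rose by 0.68 (adjusted p = 0.00530) and the TRAIL receptor TNFRSF10A by 0.66 (adjusted p = 0.00945). Of the 7 not called, PMAIP1 (NOXA) had 16.8, 35.6 and 41.4 CPM with vehicle and 11.2, 22.7 and 12.7 CPM with DOX. Its log2 fold change was -1.01 (edgeR adjusted p = 0.0617), and 4 of 16 alternatives called it.

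Of 13 cell-cycle and feedback targets 3 were higher and 4 lower. Beside this and the list counts that follow, 12.8% of all genes were higher with DOX and 14.5% lower. BTG2, an antiproliferative gene, rose by 0.64 (adjusted p = 0.00626), SERTAD1 by 0.85 (adjusted p = 0.0449) and cyclin D1 (CCND1) by 0.48 (adjusted p = 0.0186). E2F7 (-1.20, adjusted p = 0.00792), GTSE1 (-1.14, adjusted p = 0.0179) and cyclin G1 (CCNG1, -0.84, adjusted p = 0.00763) were lower; E2F7 and GTSE1 are also cell-cycle genes that rise in dividing cells. Of 15 metabolism and stress targets 2 were higher, the glycolysis regulator TIGAR (0.80, adjusted p = 0.00125) and the peroxidase GPX1 (0.54, adjusted p = 0.0285), and 3 were lower, the autophagy gene DRAM1 (-1.39, adjusted p = 0.00671), KITLG (-0.89, adjusted p = 0.0380) and TP53I11 (-0.56, adjusted p = 0.0123). Of 6 repair targets the ribonucleotide reductase subunit RRM2B was higher (0.33, adjusted p = 0.0345) and the damage-recognition gene DDB2 lower (-0.51, adjusted p = 0.0131), the latter at 0.04 on TPM values. Across 16 alternatives the calls of KITLG, SERTAD1 and RRM2B were lost in 10, 8 and 8.

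In the MUC1-C overexpression experiment all 9 target genes were lower in LNCaP/MUC1-C OE cells than in LNCaP cells, and no library of one group reached the other for any of them. This comparison called 67.3% of all genes, 33.2% higher and 34.1% lower, and 34.4% of all genes were higher and 35.9% lower without overlap. The median log2 fold change of the 9 was -1.08 against -0.01 over all genes tested. For 5 of the 9 the log2 fold change reached 1 in size, and 1917 of all 13836 genes tested were called at that size. Scaling by library totals alone moved the share of higher calls from 49.4% to 32.3% and the median gene by -0.16, and all 9 stayed called lower. The calls of all 9 also held without any 1 library; GDF15 could not be tested with a minimum of 10 counts in every library.

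CDKN1A had 119, 122 and 122 CPM in LNCaP cells and 20.7, 20.6 and 21.9 CPM in LNCaP/MUC1-C OE cells. The control level was 5.73 times that of the MUC1-C cells (log2 fold change -2.52 ± 0.06 SE, edgeR adjusted p = 9.7e-16). MDM2 followed with 451, 411 and 441 CPM against 197, 218 and 203 CPM (-1.08 ± 0.05 SE, edgeR adjusted p = 7.74e-12). Both spreads within a group were small beside the distance between groups. CPM, a carboxypeptidase gene on the other strand that shares exon sequence with MDM2, had 205 to 222 counts and 173 to 222 counts. With library totals adjusted this carboxypeptidase gene was called higher (log2 fold change 0.25, edgeR adjusted p = 0.0369), opposite to MDM2.

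The apoptosis genes and the death receptor were lower as well. BBC3 had 12.1, 13.6 and 13.7 CPM in LNCaP cells and 5.82, 5.66 and 4.30 CPM in LNCaP/MUC1-C OE cells (log2 fold change -1.33 ± 0.13 SE, edgeR adjusted p = 6.26e-08). BAX had 56.4, 51.1 and 58.5 CPM against 31.996, 38.2 and 36.9 CPM (-0.63 ± 0.08 SE, adjusted p = 8.82e-07). The lowest LNCaP library stood above the highest LNCaP/MUC1-C OE library for both genes. FAS had 13.9, 14.2 and 15.4 CPM against 9.27, 9.94 and 9.92 CPM (-0.58 ± 0.10 SE, adjusted p = 4.89e-05). ACTA2, which overlaps FAS on the other strand, again moved the same way, from 470 to 568 counts to 36 to 55 (log2 fold change -3.21, adjusted p = 1.65e-12), and its part in the FAS value was not tested.

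GDF15 showed the largest fold of the 9. It was already low in LNCaP cells, with 98, 111 and 104 counts (4.83, 5.86 and 5.40 CPM), and had 5, 4 and 6 counts in LNCaP/MUC1-C OE cells (0.338, 0.306 and 0.359 CPM). The log2 fold change was -3.96 ± 0.26 SE (edgeR adjusted p = 3.94e-10), and with so few counts its exact size is uncertain. TP53INP1 had 59.6, 59.4 and 55.9 CPM against 10.5, 8.87 and 8.97 CPM (-2.63 ± 0.08 SE, adjusted p = 3.31e-14). It is the only one of the 9 that was called lower in both experiments.

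ZMAT3 and SESN1 moved less than GDF15 and TP53INP1, though ZMAT3 fell more than BAX (-0.63) and FAS (-0.58). ZMAT3 had 67.3, 75.5 and 81.8 CPM in LNCaP cells and 35.9, 35.8 and 42.1 CPM in LNCaP/MUC1-C OE cells (log2 fold change -0.98 ± 0.08 SE, edgeR adjusted p = 1.56e-08). SESN1 had 51.5, 47.1 and 50.4 CPM against 31.3, 35.6 and 36.5 CPM (-0.53 ± 0.07 SE, adjusted p = 3.83e-06). SESN1 has the smallest difference of the 9 in this experiment.

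**Figure D4:**
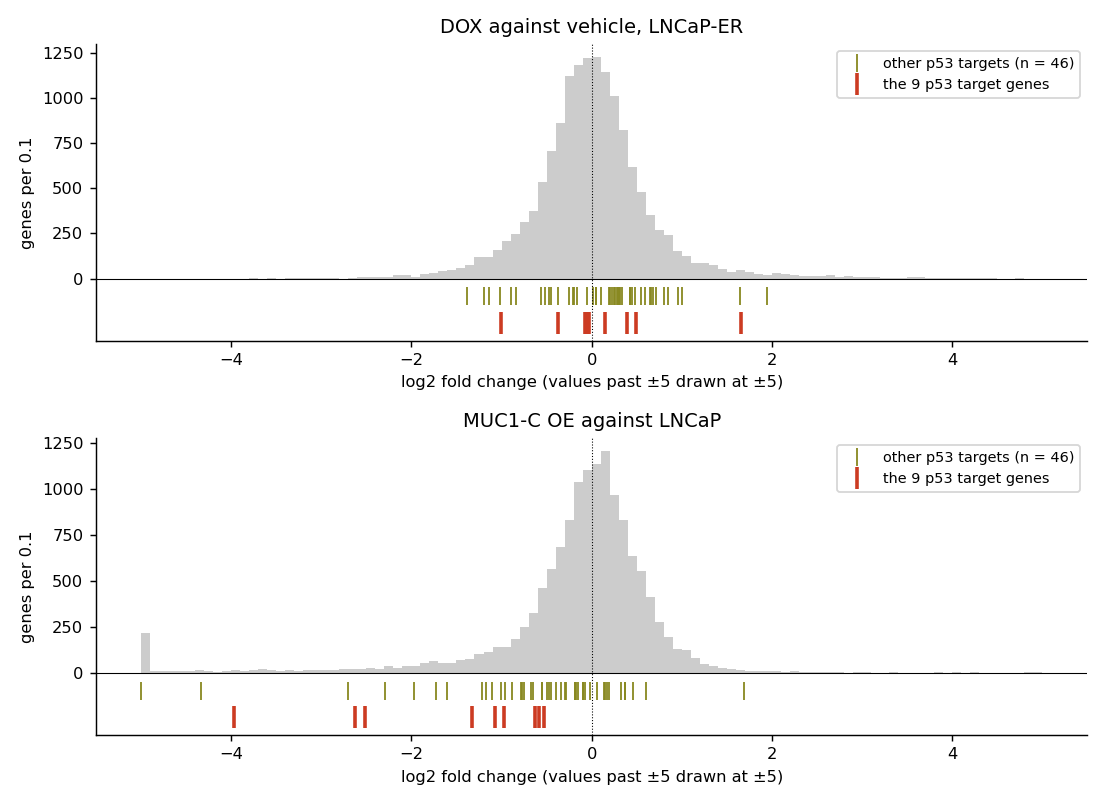
Number of genes per 0.1 of log2 fold change over all genes tested (grey), with red ticks for the 9 p53 target genes and olive ticks for the other p53 targets tested (46 in each experiment), for DOX against vehicle (top) and MUC1-C OE against LNCaP (bottom). With DOX the ticks spread to both sides of 0, and in the lower panel all red ticks lie left of 0, around a median of -1.08. Fitted values of genes at 0 counts in a group depend on the prior count.

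Of the 20 regulators 16 were higher in LNCaP/MUC1-C OE cells and none was lower. That is a share of 80% called, against 67.3% over all genes (33.2% higher and 34.1% lower). The median of their log2 fold changes was 0.25. MDM4 rose, from 43.1, 35.8 and 37.6 CPM to 88.3, 82.9 and 86.4 CPM (1.14, adjusted p = 1.1e-10). ATM was higher by 0.25 (adjusted p = 0.00171), CDKN2A, which encodes the MDM2 antagonist ARF besides p16, by 0.36 (adjusted p = 3.73e-04), and USP7, the deubiquitinase of MDM2 and p53, by 0.10 (adjusted p = 0.0414), which turned to -0.05 with library totals. PPM1D (-0.04), CHEK2 (0.16) and HIPK2 (-0.02) were not called. TP73 was higher by 0.25 (adjusted p = 0.0107).

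In the wider list 29 of 46 tested targets were lower in LNCaP/MUC1-C OE cells, 9 were higher and 8 were not called. The share called was 82.6%, against 67.3% over all genes, and the median log2 fold change was -0.43. Death-related targets were lower in 9 of 11 cases, where 34.1% of all genes were lower. SPATA18 had 26.5, 27.8 and 28.8 CPM against 5.75, 6.81 and 4.60 CPM (-2.29, adjusted p = 9.66e-12), the ectodysplasin receptor EDA2R had 22.5, 24.9 and 25.3 CPM against 6.56, 6.12 and 5.92 CPM (-1.97, adjusted p = 1.51e-11), and the TRAIL receptor TNFRSF10B had 225, 220 and 236 CPM against 70.6, 76.8 and 76.6 CPM (-1.60, adjusted p = 5.96e-14). The BH3-only gene PMAIP1 (NOXA) was higher (0.46, adjusted p = 2.42e-06).

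In the cell-cycle and feedback list 7 of 13 were lower, led by the kinase genes PLK2 (-1.11, adjusted p = 6.37e-09) and PLK3 (-1.01, adjusted p = 0.00218) and by CCND1 (-0.78, adjusted p = 4.28e-09), and 4 were higher, with GTSE1 (0.60, adjusted p = 5.32e-08), BTG1 (0.37, adjusted p = 1.35e-05) and CCNG1 (0.17, adjusted p = 0.00601) in front. Of 6 repair targets RRM2B (-1.18, adjusted p = 3.48e-12), DDB2 (-0.55, adjusted p = 2.63e-06) and XPC (-0.19, adjusted p = 0.00589) were lower and the translesion polymerases POLH (0.33, adjusted p = 1.03e-04) and POLK (0.19, adjusted p = 0.0149) higher. Of 16 metabolism and stress targets 10 were lower, among them the antiangiogenic matrix gene THBS1 (-2.71, adjusted p = 5.32e-06), the potassium-chloride cotransporter SLC12A4 (-1.73, adjusted p = 1.34e-11) and DRAM1 (-0.96, adjusted p = 4.88e-05). SESN2, the sestrin that ATF4 also induces, was higher, with 47.9, 50.2 and 49.7 CPM against 157, 168 and 151 CPM (1.68, adjusted p = 5.96e-14), as was KITLG (0.37, adjusted p = 1.16e-04). On the ATF4 list, which includes SESN2, 6 of 8 genes were higher in LNCaP/MUC1-C OE cells. Beside each of these list counts, 33.2% of all genes were higher and 34.1% lower in this comparison.

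Luminal prostate markers were lower in the same libraries. Their summed level was 345 to 357 CPM in LNCaP cells and 63.2 to 70.97 CPM in LNCaP/MUC1-C OE cells. Of the 9 markers 8 were called lower, where 34.1% of all genes were lower. KLK3, KLK2 and FOLH1 were at 0 in every LNCaP/MUC1-C OE library, while KLK3 had 22.5 to 25.3 CPM in LNCaP cells. HOXB13 (31.0 to 35.8 CPM against 30.0 to 33.0 CPM) was not called. LNCaP cells are known for KLK3, which was at 122 to 154 CPM in the vehicle LNCaP-ER libraries. The experiments were normalized separately, so these levels are set side by side without a test. Markers of basal epithelium, endothelium and leukocytes summed to at most 2.34 CPM in the 6 libraries of the overexpression experiment, and fibroblast markers to 59.8 to 65.1 CPM in LNCaP and 42.8 to 48.1 CPM in LNCaP/MUC1-C OE cells. The part of the luminal shift in the p53 target values was not tested.

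Set side by side, 3 target genes were higher with DOX and lower with MUC1-C (CDKN1A, MDM2 and FAS), 1 was lower in both (TP53INP1) and 5 were called in 1 comparison alone. CDKN1A had the largest rise of the 9 with DOX, at 1.65, and a value of -2.52 with MUC1-C. For the wider list, 43 genes were tested in both experiments, of which 8 were higher with DOX and lower with MUC1-C, 5 were lower with DOX and higher with MUC1-C, 2 were lower in both, none was higher in both, 24 were called in 1 comparison and 4 in neither. Over all genes 27.3% were called with DOX (12.8% higher and 14.5% lower) and 67.3% with MUC1-C (33.2% higher and 34.1% lower). How many of all genes were called in both was not counted, so these joint counts have no share over all genes beside them. The experiments share no library, but they differ in the cells used (LNCaP-ER, derived from LNCaP, and LNCaP), treatment and normalization. The difference between the 2 contrasts was not tested.

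**Figure D5:**
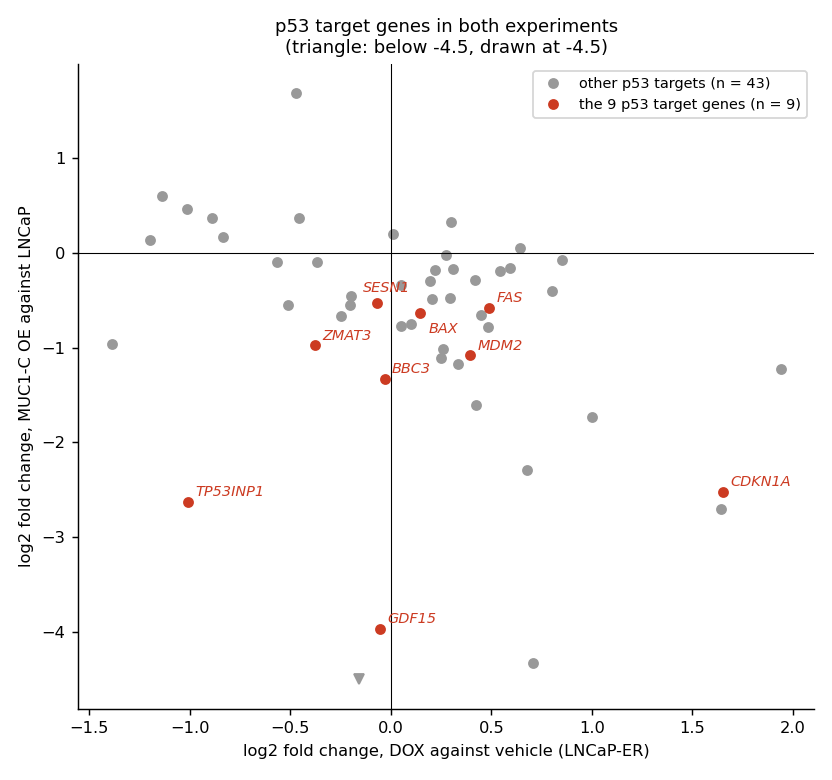
Log2 fold change with DOX against vehicle (horizontal) and with MUC1-C OE against LNCaP (vertical), for the 9 p53 target genes (red, named) and the other p53 targets tested in both experiments (grey, n = 43). CDKN1A is at 1.65 and -2.52, TP53INP1 at -1.01 and -2.63, and all red points lie below the horizontal line at 0.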

How the data were processed

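RNA-Seq counts of 12 libraries in 4 groups of 3 were analysed. Per the labels, libraries were made with a stranded mRNA kit. The submitters' processing notes name STAR, DESeq2 and GRCh38/hg38 without versions, and the annotation and the strand setting of the counting are not given in the sources used here. The authors deposited unnormalized counts per gene symbol for both experiments and TPM for the silencing experiment; how gene lengths were set is not given. The second table also held 12 columns of other cell lines, which were not used.

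The 9 genes and all gene lists were chosen with earlier results of these data known. Each experiment was fitted alone with edgeR 4.0.16 in R 4.3.3 (TMM, filterByExpr, robust quasi-likelihood test, Benjamini-Hochberg over all genes tested). Calls had an adjusted p under 0.05. Intervals are at 95%, and all p-values and intervals cover the spread between 3 cultures per group. Alternatives were DESeq2 1.42.0, other scalings and filters, a minimum absolute log2 fold change of 1, a replicate block, leaving out each library and limma 3.58.1 on log2(TPM + 1) or log2(TPM + 0.1). Functions were checked on simulated data. Levels were compared between genes on TPM alone.

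All 9 genes, MUC1, TP63, TP73, MDM4, USP7, PPM1D, ATM, CHEK2, CDKN2A, HIPK2, SESN2, SESN3, TP53INP2, ATF4, DDIT3, TRIB3, ASNS and CHAC1 were to be named, and from each list of other targets, CDK inhibitors and BCL2 family genes up to 3 called genes per direction with the largest fold and at least 1 CPM on average. Symbols COP1, SUSD6 and TIGAR were matched through RefSeq synonyms where a table held an older one. Gene coordinates are those of GENCODE v29 (GRCh38). A chi-square test of counts found every pair of replicate libraries to differ beyond counting error (2.20 to 61.7 for each degree of freedom), so none was merged. Of the genes fixed for naming and the luminal markers, 1 each is not reported here.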

Additional observations from a re-analysis of the deposited data

How the results depend on the processing

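All values below are edgeR calls at an adjusted p under 0.05 unless another tool is named. For the 9 target genes with DOX, 125 of 144 alternative values kept their side of the threshold, 11 lost a call and 8 gained one. None called in either fit changed direction, but values called in neither could change sign, as for BBC3 (-0.41 to 0.45). Of the values of other genes chosen for naming, 668 of 834 were kept with DOX, 111 lost a call, 49 gained one and 6 reversed. With MUC1-C these counts were 621 of 688, 57, 8 and 2. For the 9 target genes with MUC1-C, 112 of 116 values were kept. The other 4 lost a call only where a log2 fold change of at least 1 was required. With that requirement 988 genes, 1 target gene higher and, of the wider list, 1 higher and 3 lower were called with DOX, against 4006, 3, 11 and 8, and 1917 genes, 5 target genes lower and, of the wider list, 1 higher and 11 lower with MUC1-C, against 9312, 9, 9 and 29. Leaving out each library in turn gave 2002 to 5243 genes with DOX, 1 to 3 target genes higher and 1 to 3 lower, and 6 to 16 higher and 3 to 7 lower of the wider list; the low counts of genes came without vehicle replicate 2 (2200), vehicle replicate 3 (2002) and DOX replicate 3 (2067), and the high one without DOX replicate 2 (5243). With MUC1-C these ranges were 8486 to 9512 genes, 0 target genes higher, 9 lower, and 7 to 9 higher and 28 to 30 lower of the wider list. DESeq2 and the fit without a filter on low counts each called 2 target genes lower with DOX, ZMAT3 beside TP53INP1. On TPM values with limma, 0 target genes were called lower with DOX (TP53INP1 at an adjusted p of 0.0840, 0.0852 and 0.265), and the wider list had 25 higher and 1 lower with a pseudocount of 1, 25 higher and 2 lower with 0.1, and 0 lower without a filter, where 1673 genes were called. Target genes called higher on TPM values numbered 4, 4 and 2 in these fits, BAX being among the 4. On that scale DDB2 turned to 0.0428, 0.0464 and 0.0428 and BTG1 to 0.11, 0.11 and 0.11, while the median gene shifted by 0.45, 0.52 and 0.16. With scaling by library totals USP7 turned to -0.0503 and E2F7 to -0.0160 with MUC1-C. The cause of these differences was not tested, beyond the fewer libraries or genes in each fit.

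Same-numbered libraries did not deviate together (correlations of 0.0868, -0.00276 and -0.0739 with DOX and -0.0292, -0.149 and -0.0374 with MUC1-C), so the numbers were not taken as pairs. The fit with the replicate number as a block called 4226 genes with DOX, with 3 target genes higher and 2 lower (ZMAT3 at an adjusted p of 0.0269 beside TP53INP1), and 8965 genes with MUC1-C, with 9 target genes lower.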

Other observations

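Relatives of the target genes did not all follow them. TP53INP2, the autophagy-linked paralog of TP53INP1, had 69.2, 64.1 and 60.9 CPM with vehicle and 181, 180 and 197 CPM with DOX (log2 fold change 1.52, edgeR adjusted p = 1.09e-04), opposite to TP53INP1 at -1.01. In LNCaP/MUC1-C OE cells both were lower, TP53INP2 by 1.35 on the log2 scale, a fall from 39.6, 43.4 and 39.0 CPM to 16.3, 15.3 and 16.02 CPM. SESN3, a sestrin controlled by FOXO factors, fell with DOX from 997, 792 and 877 CPM to 300.4, 374 and 304 CPM (-1.45, adjusted p = 4.2e-04), where SESN1 was not called, and was lower by 0.36 with MUC1-C. With MUC1-C, SESN1 (-0.53) and SESN3 (-0.36) were lower and SESN2 (1.68) was higher.

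Among 6 other CDK inhibitor genes, CDKN2B, which encodes p15, rose with DOX from 1.01, 1.80 and 2.20 CPM to 5.64, 5.73 and 11.5 CPM (log2 fold change 2.21, edgeR adjusted p = 0.00457) and was lower with MUC1-C (-0.86, adjusted p = 3.42e-05). CDKN2C, which encodes p18, showed -0.92 (adjusted p = 0.0413) with DOX and 0.55 (adjusted p = 1.67e-06) with MUC1-C. Its call with DOX was lost in 11 of 16 alternatives. With MUC1-C, CDKN1B (-0.21) and CDKN1C (-0.67) were also called lower and CDKN2A higher. In the BCL2 family the proapoptotic genes BAD (0.70, adjusted p = 0.0154) and BAK1 (0.64, adjusted p = 0.00781) were the 2 of 13 tested that were called with DOX, a share of 15.4% against 27.3% over all genes. With MUC1-C, where 67.3% of all genes were called and 34.1% were lower, 6 of 12 were lower, led by BID (-0.67), BMF (-0.65) and BAD (-0.59) among genes of at least 1 CPM, and 4 were higher, among them PMAIP1 (0.46), BCL2L2 (0.39) and HRK (0.37).

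The control groups of the experiments were not compared by a test, since they came from separate tables. As values divided by library totals alone, GDF15 was at 438 ± 178 CPM in vehicle-treated LNCaP-ER cells and at 5.65 ± 0.531 CPM in LNCaP cells, TP53INP1 at 416 ± 63.2 and 61.4 ± 2.22 CPM, and MDM2 at 391 ± 12.9 and 458 ± 23.1 CPM (SD, n = 3 in each).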
